A study of Homo sapiens with 8 samples.

Results

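The genes described here form the replication stress checkpoint and the repair of stalled or broken replication forks. They are 41 genes of the ATR and ATM checkpoint, homologous recombination, the Fanconi anaemia pathway and the helicases, nucleases and remodellers that act at forks. They were chosen by name from what their products do, with earlier results of these data known. Their counts beside all genes are therefore a description and not a test of the set. Each non-control probe carrying such a name was taken from the arrays. This gave 60 probes of 58201, and 41 of the 43317 gene and transcript names on the design. The probe with the highest mean brightness over the arrays stood for its gene, and 28 of the 41 genes had only 1 probe.

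Gene expression in 4 human cancer cell lines was read on 8 Agilent arrays with 2 dyes. On each array the green dye (Cy3) labelled RNA of mock cells, which received no transfection, and the red dye (Cy5) labelled RNA of the same line after transfection with a lipid reagent. In MDA-MB-231, a mesenchymal triple-negative breast cancer line, 1 array held cells given the first siRNA against GINS1 (si-GINS1_1) and 1 array held cells given the second (si-GINS1_2). Mature miRNAs were given in the other lines, namely both strands of miR-139 (miR-139-5p, miR-139-3p) in the renal lines A498 and 786-O and both strands of miR-490 (miR-490-5p, miR-490-3p) in the colorectal line HCT116, with 1 array for each strand in each line. GINS1 is a subunit of the GINS complex, which together with CDC45 and the MCM proteins forms the helicase that unwinds DNA at the replication fork. The control was untransfected cells and not a non-targeting siRNA, no dye was swapped, and no transfection was repeated. The arrays of a miR-139 group were different cell lines and the GINS1 arrays different siRNAs, so the spread behind the p-values is between lines or siRNAs and not between cultures treated alike.

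When a replication fork stalls, single-stranded DNA coated by RPA recruits the kinase ATR through its partner ATRIP. ATR is activated by TOPBP1, with help of the RAD9A, RAD1 and HUS1 clamp, or by ETAA1. It passes the signal through claspin (CLSPN) to the kinase CHEK1, which holds back new origins and entry into mitosis. The BRCA1 and BRCA2 proteins protect and restart forks through homologous recombination, and the Fanconi anaemia proteins clear crosslinks by attaching ubiquitin to FANCD2 and FANCI.

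Values are log2 ratios of transfected over mock cells after background correction and loess normalization within each array. A pair of values for A498, 786-O or HCT116 gives the 5p strand first and the 3p strand second. The 8 arrays had between 24986 and 29690 probes well above background in at least 1 dye, and no spot was saturated. All 41 genes were well above background on both GINS1 siRNA arrays, and 36 were so on all 8 arrays. Markers of the labelled lines were compared in the mock channel, on the same probe only. VIM, a mesenchymal filament gene, averaged 14.65 on the log2 scale in mock MDA-MB-231 cells and 6.77 in HCT116. It was higher still in 786-O at 15.10 and A498 at 14.77, so it does not single out MDA-MB-231. ESR1 lay between 5.99 and 6.09 in all lines, and ERBB2 was at 8.48 in MDA-MB-231, 8.49 in 786-O and HCT116 and 9.74 in A498. EPCAM and CDH1 of epithelial cells were highest in HCT116 at 11.79 and 9.16, and PAX8 and PAX2 of kidney were highest in A498 at 8.13 and 8.36. CA9 of renal cancer was not well above background in A498, and LGR5 of colon stem cells was not so in any line. CDX1, a gut transcription factor, was highest in A498 at 7.12 and was at 6.81 in HCT116.

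GINS1 itself had a log2 ratio of -1.31 with siRNA 1 and -1.92 with siRNA 2. The miRNA arrays had -0.11 and 0.16 in A498 cells, 0.13 and 0.16 in 786-O, and 0.29 and 0.55 in HCT116. Both siRNA arrays lay below all 6 miRNA arrays, and their mean was -1.61 ± 0.43 (SD, n = 2), with an adjusted p of 0.0174 in limma against a ratio of 0. GINS1 was also lower with siRNA 2 than with siRNA 1, by 0.61 (adjusted p = 0.0254, limma contrast, with the siRNA arrays assumed to vary like the miR-139 arrays).

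The checkpoint and fork repair genes mostly took opposite sides of the mock level with the 2 siRNAs. Their median log2 ratio was 0.27 with siRNA 1, where all genes above background had a median of 0.01, and -0.22 with siRNA 2, where all genes had 0.0055. The median difference between the siRNAs was 0.51 over the 41 genes and 0.0020 over all genes. Both signs held under each scaling tried. Of the 41 genes, 26 were above 0 with siRNA 1 and below 0 with siRNA 2, against 21.4% of all genes. Another 7 genes were below 0 with both (27.5% of all genes), and 5 were below 0 with siRNA 1 and above 0 with siRNA 2 (20.4% of all genes). The remaining 3, ATR, ATRIP and MRE11A, were above 0 with both (30.7% of all genes).

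A log2 ratio of 0.5 or more in size, a change of 1.41 times, served as a size rule for a single array, with no test. With siRNA 1, 13 genes were at or above 0.5 and 4 at or below -0.5, where 7.8% of all genes were at or above and 7.31% at or below. With siRNA 2, 9 genes were at or below -0.5 and 0 at or above 0.5, where 6.27% of all genes were at or below and 4.59% at or above. Centring each array on its median in place of loess shifted all genes, whose median became 0.20 with siRNA 1 and 0.08 with siRNA 2, and the split then became 23 higher and 0 lower with siRNA 1 and 1 higher and 6 lower with siRNA 2. Subtracting each probe's mean over the miRNA groups gave 15 higher and 2 lower with siRNA 1 and 0 higher and 6 lower with siRNA 2. The share of all genes past 0.5 was not computed under either setting, so these counts have no background beside them.

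Against the 6 miRNA arrays, 27 genes were above all of them with siRNA 1 (28.5% of all genes) and 20 were below all of them with siRNA 2 (24.2% of all genes). Both held for 16 genes, or 39.0%, compared with 5.79% of all genes. Only 6 genes were past the size rule in opposite directions, namely BRCA1, RAD54L, FANCD2, FANCG, EXO1 and PARP1, and this held for 0.782% of all genes. WEE1 and FANCL were at or below -0.5 with both siRNAs, which held for 1.88% of all genes.

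**Figure D1:**
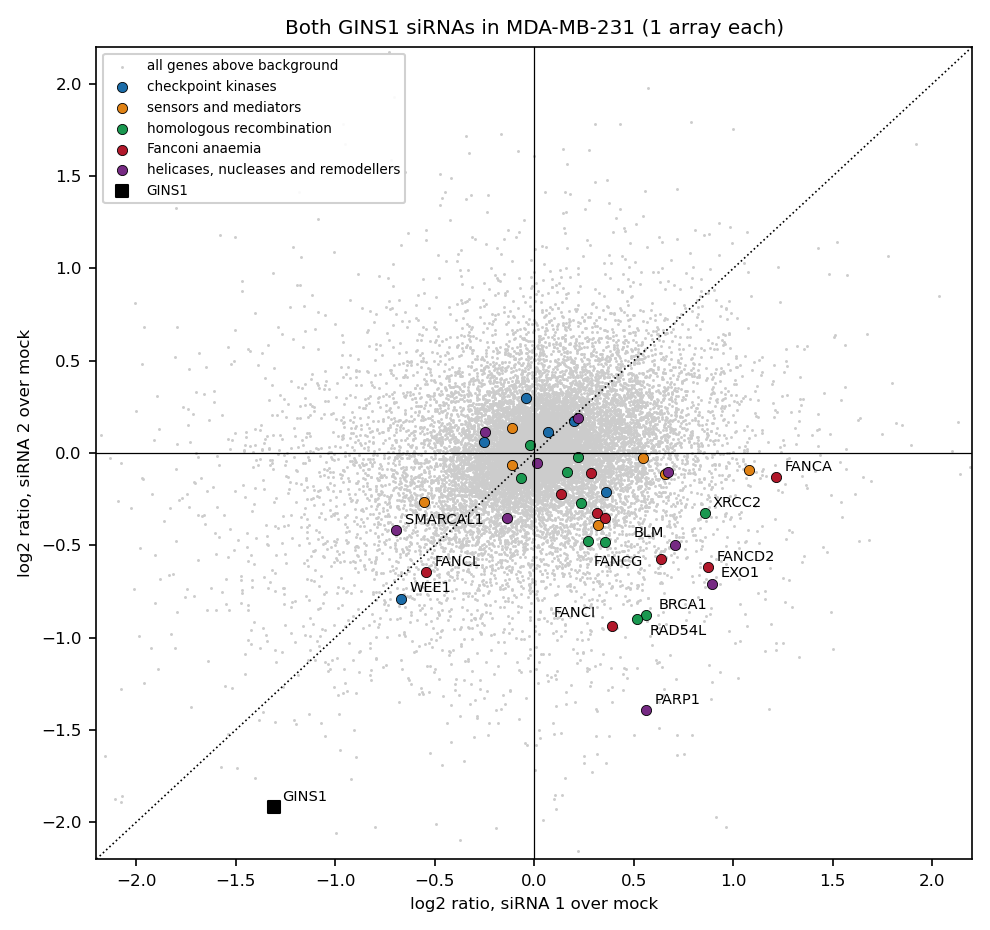
Log2 ratio over mock with siRNA 1 (x axis) against siRNA 2 (y axis) in MDA-MB-231, 1 array each. Grey points are all genes well above background on both arrays, coloured points the 41 checkpoint and fork repair genes by role, and the black square GINS1. The dotted line marks equal ratios, and 32 of 21371 genes lie outside the axes, which end at 2.2. Most coloured points lie in the lower right part of the plot, from PARP1 at 0.56 and -1.39 to FANCA at 1.22 and -0.13, while WEE1, FANCL and SMARCAL1 lie in the lower left.

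Both tests were made across all 27798 probes that were well above background on both siRNA arrays, with p-values adjusted over all of them by Benjamini-Hochberg. The first set the mean of both siRNAs against a ratio of 0. It called 3 of the 41 genes lower, WEE1, FANCL and SMARCAL1, and 0 higher, where 3.85% of all genes were called lower and 3.56% higher. A further 3 genes had an unadjusted p under 0.05, which made 6 of 41, where 5726 of all 21362 genes had one. The second set siRNA 1 against siRNA 2. Each siRNA had 1 array, so the spread came from the miR-139 arrays, on which few genes passed 0.5, and the siRNA arrays were assumed to vary like them. Its p-values hold no spread between cultures given the same siRNA, and its calls have no replicate check. It called 23 of the 41 genes, 22 of them higher with siRNA 1 and 1, WRN, lower, where 13.9% of all genes were called higher and 11.5% lower.

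Neither set of calls held for every processing. With the scanner software's own log ratio no gene was called in either test, and none of all probes was called in the second, while 4 of the 41 had an unadjusted p under 0.05 in the first and 25 in the second. Shares of all probes at that unadjusted level were not computed for the scanner log ratio. The 3 calls of the first test were also lost with any 1 of the 4 miR-139 arrays left out and in a fit of only the 2 siRNA arrays. None of all probes was called in any of these fits. Median centring gave 1 lower and 3 higher in the first test, with the share of all probes not given here. The cell line as a random block gave 6 lower and 5 higher, while 10517 of all 27798 probes were called in that fit. Without the siRNA 1 array the mean rests on siRNA 2 alone, with a median of -0.22 over the 41 genes. Without the siRNA 2 array it rests on siRNA 1 alone, with a median of 0.27. With the cell line of the miR-139 arrays as a fixed term, an alternative added after seeing the data, the second test called 23 genes, of which 22 were the same, with WRN lost and FANCM gained. Median centring ended 7 calls of the second test, among them those of RAD1, FANCB, FANCC, FANCE and WRN. The 22 genes called higher with siRNA 1 were above 0 in all 6 alternatives that alter the estimate itself.

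**Figure D2:**
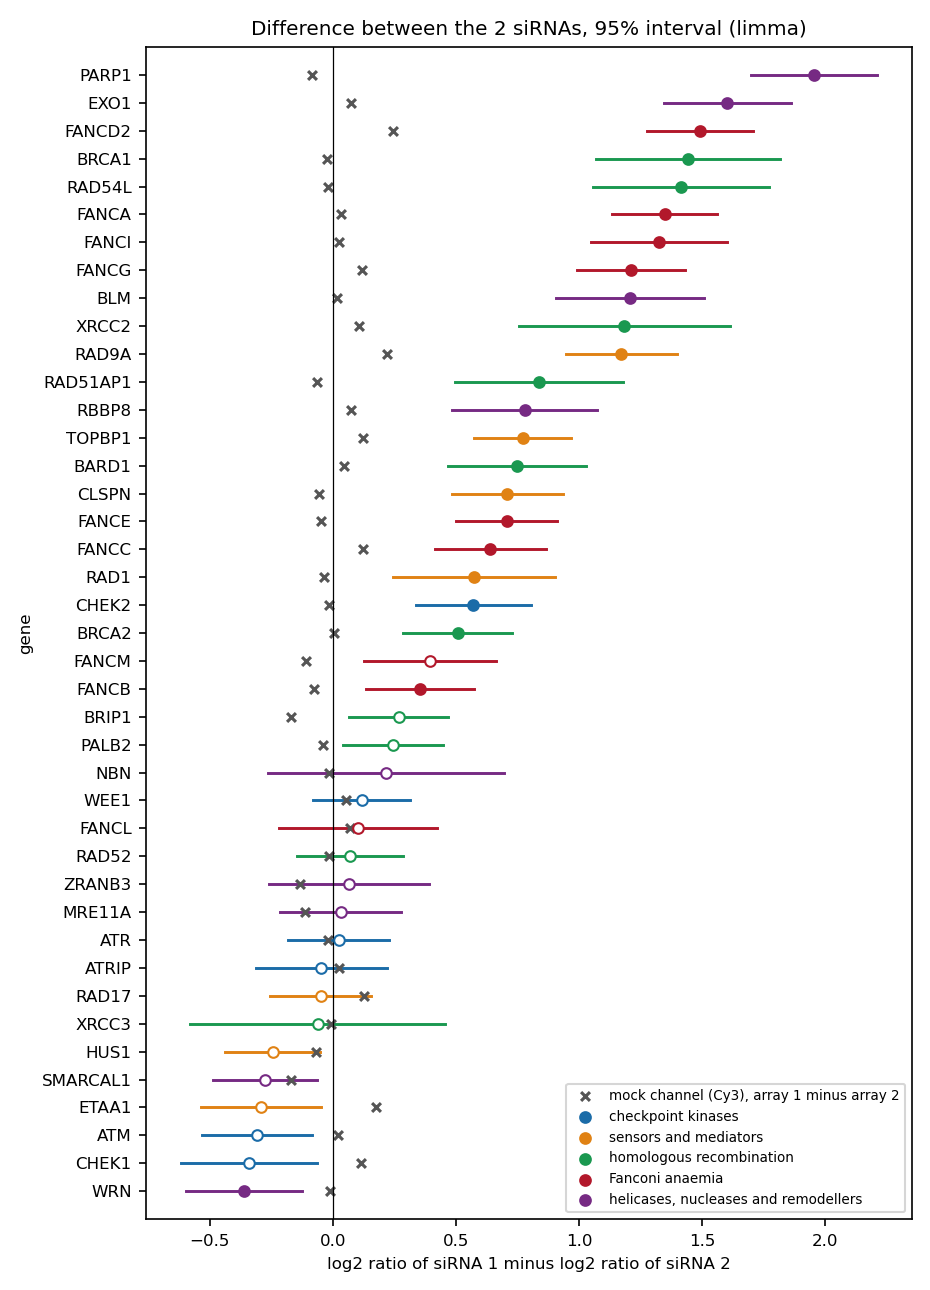
Difference of the log2 ratios, siRNA 1 minus siRNA 2 (x axis), for each of the 41 genes (y axis, ordered by the difference). Circles are the differences, coloured by role and filled where the adjusted p was under 0.05, lines are 95% intervals from limma that rest on the spread of the miR-139 arrays, and crosses are the difference between the mock channels of the same arrays. The differences run from -0.36 for WRN to 1.95 for PARP1, and the mock crosses stay between -0.17 and 0.24.

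Both MDA-MB-231 arrays carried RNA of mock cells in the green channel, which gave a measure of how far the mock signal differed between the arrays. The labels do not say whether both carried 1 mock extract, and this spread may then be technical. Over all probes the mock channels differed with an SD of 0.059, and over the 41 genes by -0.17 to 0.24. Comparing the red channels directly, with no use of the mock channel, gave a median difference of 0.53 over the 41 genes. PARP1 then differed by 1.88, FANCD2 by 1.80, EXO1 by 1.73 and BRCA1 by 1.46. The median difference was thus of the same size without the mock channel. In bulk RNA of this kind, fewer cells carrying a transcript and less of it per cell cannot be told apart.

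Of the 6 genes at the level of the checkpoint kinases, 1 was called lower in the mean of both siRNAs, against 3.85% of all genes. In the second test 1 of 6 was called, no more often than all genes, at 5426 of 21362. WEE1, the kinase that keeps CDK1 inactive until replication is complete, had log2 ratios of -0.67 with siRNA 1 and -0.79 with siRNA 2. WEE1 had -0.12 and 0.02 in A498 cells, -0.08 and -0.01 in 786-O, and 0.07 and 0.40 in HCT116 with the miRNAs. Both siRNA arrays thus lay below all 6 miRNA arrays. The mean was -0.73 ± 0.08 (SD, n = 2; limma SE 0.05, adjusted p = 0.0131), and the difference between the siRNAs was 0.12, with a 95% interval from -0.08 to 0.31. The call remained after subtraction of the mean of the miRNA groups (adjusted p = 0.0224) and after median centring (adjusted p = 0.0494). It was lost with the scanner log ratio (adjusted p = 0.0728), without any 1 of the miR-139 arrays (adjusted p between 0.0850 and 0.0904) and with only the si-GINS1 arrays (adjusted p = 0.523). None of all probes was called in the fits without a miR-139 array or with only the si-GINS1 arrays. The WEE1 probe covers chr11:9611073-9611132 of hg19 on the plus strand.

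The kinases at the head of the checkpoint showed small ratios. ATR, the kinase that answers stalled forks, was at 0.20 with siRNA 1 and 0.17 with siRNA 2, and ATRIP, its binding partner, at 0.07 and 0.12. ATM, which answers double-strand breaks, was at -0.25 and 0.06, and CHEK1, the effector kinase of ATR, at -0.04 and 0.30. None of these 4 genes passed either test (adjusted p between 0.0616 for the difference of ATM and 0.878 for that of ATR, under the assumption above), and the 95% interval of the difference ran from -0.18 to 0.23 for ATR and from -0.62 to -0.06 for CHEK1. ATR passed the first test after median centring (adjusted p = 0.0413) and with no filter on dim probes (adjusted p = 0.046). It also passed with the cell line as a random block (adjusted p = 0.00621), where 10517 of all 27798 probes were called. CHEK2, the effector kinase of ATM, differed between the siRNAs, at 0.36 with siRNA 1 and -0.21 with siRNA 2 (difference 0.57, SE 0.09, adjusted p = 0.0118), and its 4 probes all had a positive difference, from 0.16 to 0.57.

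**Figure D3:**
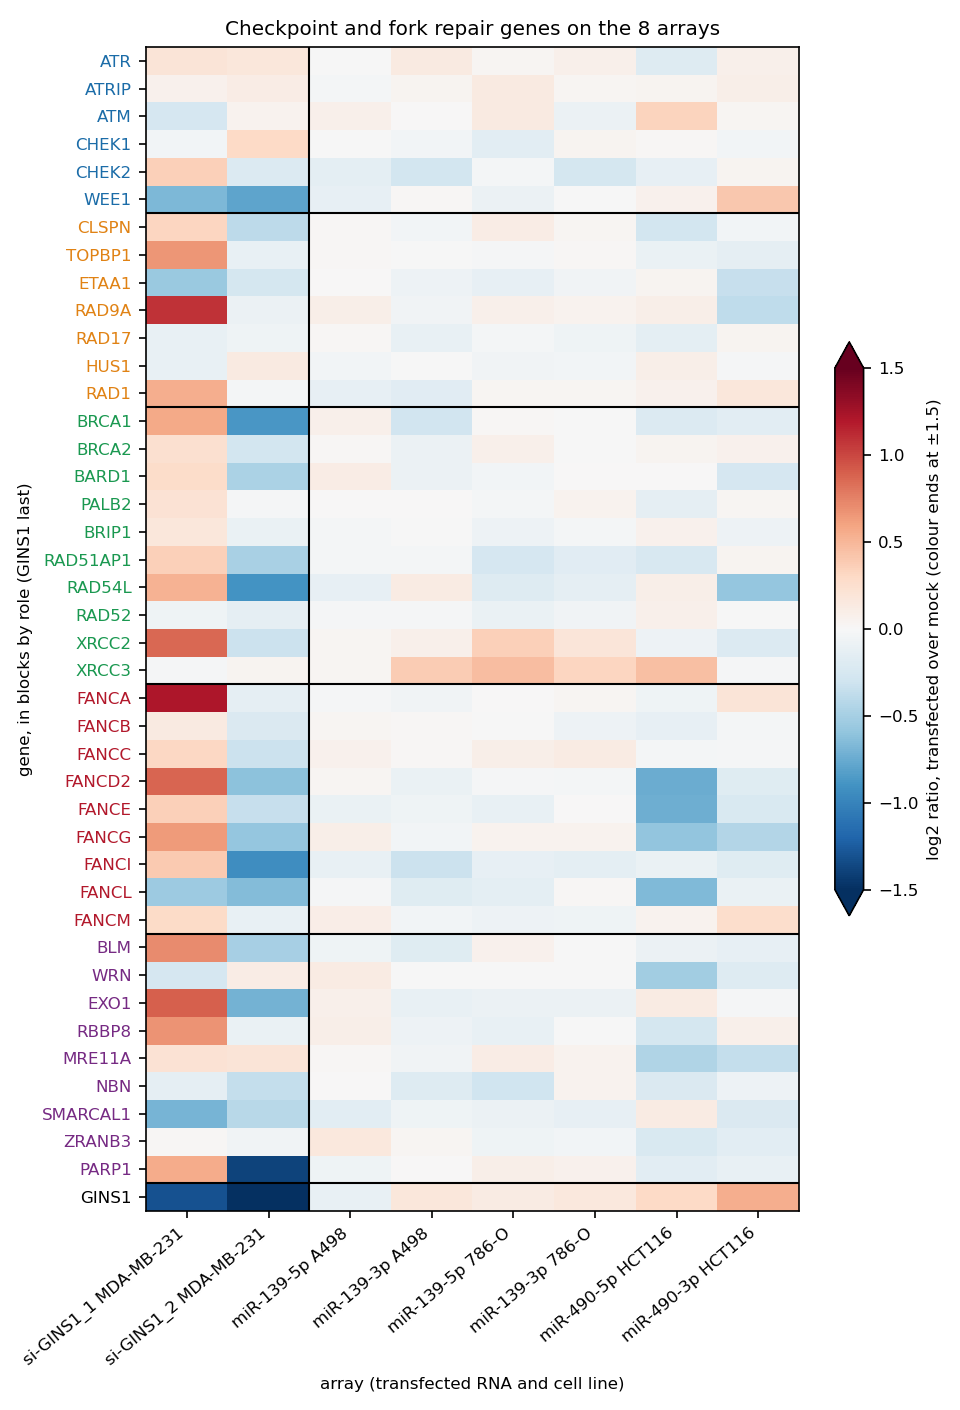
Log2 ratio of transfected over mock (colour, ending at 1.5 in either direction) for the 41 genes and GINS1 (rows, in blocks by role) on the 8 arrays (columns). The siRNA 1 column is mostly red and the siRNA 2 column mostly blue, with 29 and 8 of the 41 genes above 0. Of all genes measured, 12141 of 22751 and 11338 of 21979 were above 0. WEE1 and FANCL are blue in both, and the miR-139 columns are pale throughout, between -0.33 and 0.46.

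Among the 7 sensors and mediators, 4 were called higher with siRNA 1 than with siRNA 2, against 13.9% of all genes. RAD9A, a ring subunit of the 9-1-1 clamp that is loaded at stalled forks, was at 1.08 with siRNA 1 and -0.09 with siRNA 2. With the miRNAs it had 0.08 and -0.05 in A498 cells, 0.08 and 0.06 in 786-O, and 0.09 and -0.39 in HCT116, so that siRNA 1 lay above the other 7 arrays. TOPBP1, the scaffold that switches ATR on, was at 0.66 with siRNA 1 and -0.11 with siRNA 2. Its miRNA values were 0.02 and -0.01 in A498 cells, -0.02 and 0.01 in 786-O, and -0.10 and -0.13 in HCT116, all below siRNA 1.

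The difference was 1.17 for RAD9A (SE 0.09, adjusted p = 0.00197) and 0.77 for TOPBP1 (SE 0.08, adjusted p = 0.00342), again with the spread of the miR-139 arrays. CLSPN, which hands CHEK1 to ATR, was at 0.32 with siRNA 1 and -0.39 with siRNA 2 (difference 0.71, adjusted p = 0.00589). RAD1, another subunit of the clamp, was at 0.55 and -0.03 (difference 0.57, adjusted p = 0.0312). A second RAD1 probe did not share this, with 0.26 and 0.29, and with the mean of both probes the call was lost (adjusted p = 0.0775). The RAD1 call was also lost with no filter, median centring, no background correction and an offset of 10 (adjusted p between 0.0512 and 0.0907).

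The other 3 genes of this group did not pass the second test. ETAA1, which activates ATR beside TOPBP1, was below 0 with both siRNAs, at -0.56 and -0.26. ETAA1 had 0.01 and -0.08 in A498 cells, -0.12 and -0.05 in 786-O, and 0.04 and -0.35 in HCT116 with the miRNAs, so that the siRNA 2 and miR-490-3p values overlapped. Its mean of -0.41 ± 0.21 (SD, n = 2) just missed the threshold (adjusted p = 0.0586) and passed it with a smaller offset of 10 (adjusted p = 0.0476). The mean also passed with no background correction (adjusted p = 0.0484) and with the cell line as a random block (adjusted p = 0.00303). RAD17, the clamp loader, was at -0.11 and -0.06, and HUS1, the remaining clamp subunit, at -0.11 and 0.13. HUS1 was well above background on 5 of the 8 arrays.

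In homologous recombination, 6 of 10 genes were called higher with siRNA 1 than with siRNA 2, against 13.9% of all genes. BRCA1, which directs broken ends towards recombination and shields stalled forks, was at 0.56 with siRNA 1 and -0.88 with siRNA 2. Its miRNA values were 0.08 and -0.29 in A498 cells, 0.02 and -0.01 in 786-O, and -0.21 and -0.16 in HCT116, and they lay between the siRNA arrays. RAD54L, a motor protein of recombination that acts on chromatin, was at 0.52 and -0.90 with the siRNAs. RAD54L had -0.12 and 0.13 in A498 cells, -0.20 and -0.14 in 786-O, and 0.09 and -0.58 in HCT116, where RAD54L was the only one of the 41 genes past the size rule with miR-490-3p.

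The difference was 1.44 for BRCA1 (95% interval 1.07 to 1.82, adjusted p = 0.00357) and 1.41 for RAD54L (1.06 to 1.77, adjusted p = 0.00335), with the siRNA arrays assumed to vary like the miR-139 arrays. XRCC2, which acts in strand exchange, was at 0.86 with siRNA 1 and -0.33 with siRNA 2, and had 0.03 and 0.07 in A498 cells, 0.36 and 0.18 in 786-O and -0.08 and -0.20 in HCT116 (difference 1.18, adjusted p = 0.00831). RAD51AP1, a cofactor of strand exchange, was at 0.36 and -0.48, BARD1, the partner of BRCA1, at 0.27 and -0.47, and BRCA2, a mediator of recombination, at 0.24 and -0.27, with differences of 0.84, 0.75 and 0.51. Their adjusted p-values in the same limma contrast were 0.0118, 0.00921 and 0.014.

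PALB2, which joins BRCA1 to BRCA2, was at 0.22 and -0.02, and the helicase BRIP1 was at 0.16 and -0.10. Both missed the threshold of the second test (adjusted p = 0.0881 and 0.0662), as did the annealing factor RAD52 at -0.07 and -0.14. XRCC3, which also acts in strand exchange, depended on the probe. Its brightest probe, designed on the transcript ENST00000557439 and located at chr14:104170734-104170793 of hg19, was at -0.02 with siRNA 1 and 0.04 with siRNA 2. The probe designed on NM_001100119, at chr14:104163955-104164014, was at 0.51 and -0.67, and with it XRCC3 was called higher with siRNA 1 by 1.18 (adjusted p = 0.00409). The first probe had a mean log2 brightness of 14.92 and the second of 7.77.

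Of the 9 Fanconi anaemia genes, 7 were called between the siRNAs, all higher with siRNA 1, against 13.9% of all genes. FANCD2, which is ubiquitinated together with FANCI when the pathway is switched on, was at 0.87 with siRNA 1 and -0.62 with siRNA 2. With the miRNAs it had 0.03 and -0.10 in A498, -0.02 for both strands in 786-O, and -0.74 and -0.19 in HCT116, so the siRNA 2 array did not stand below all miRNA arrays. FANCI was at 0.39 and -0.93 with the siRNAs, and had -0.11 and -0.33 in A498 cells, -0.13 and -0.15 in 786-O and -0.10 and -0.18 in HCT116. The differences were 1.49 for FANCD2 (SE 0.08, adjusted p = 0.00132) and 1.32 for FANCI (SE 0.11, adjusted p = 0.00228), with the spread of the miR-139 arrays. The 3 FANCD2 probes differed by 1.49, 1.11 and 0.55.

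The core complex that carries out this ubiquitination was split. FANCA was at 1.22 with siRNA 1, the highest ratio of the 41 genes on that array, and at -0.13 with siRNA 2. Its miRNA values were -0.02 and -0.05 in A498 cells, 0.01 and 0.03 in 786-O, and -0.06 and 0.19 in HCT116. FANCG was at 0.64 and -0.58 with the siRNAs, and had 0.09 and -0.04 in A498, 0.06 for both strands in 786-O, and -0.59 and -0.44 in HCT116. The siRNA differences were 1.35 for FANCA (adjusted p = 0.00146) and 1.21 for FANCG (adjusted p = 0.00179).

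Smaller differences of the same sign were called for FANCE at 0.36 and -0.35 (adjusted p = 0.00467), FANCC at 0.32 and -0.32 (adjusted p = 0.00786) and FANCB at 0.13 and -0.22 (adjusted p = 0.0391), in the same contrast and under the same assumption. Median centring ended all 3 calls (adjusted p = 0.0614 for FANCE, 0.0507 for FANCC and 0.0606 for FANCB). FANCB also lost its call without either miR-139-5p array (highest adjusted p 0.0718). A dimmer FANCC probe had a difference of -0.13, and the FANCC call was lost with the mean of all probes (adjusted p = 0.110). FANCM, the translocase that anchors the core complex, was at 0.29 and -0.11 and was just above the threshold (adjusted p = 0.0501).

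FANCL, the ubiquitin ligase of the core complex, went the other way from its partners with siRNA 1. It was at -0.54 with siRNA 1 and -0.65 with siRNA 2, a mean of -0.60 ± 0.07 (SD, n = 2; limma SE 0.07, adjusted p = 0.0232). Its miRNA values were -0.02 and -0.18 in A498 cells, -0.14 and 0.02 in 786-O, and -0.66 and -0.10 in HCT116, and the miR-490-5p array overlapped the siRNA arrays. Subtracting the mean of the miRNA groups gave -0.36 and ended the call (adjusted p = 0.0991), and median centring gave -0.27 (adjusted p = 0.28). A dimmer FANCL probe was at -0.10 and -0.29. The probe that stood for FANCL lies at chr2:58386477-58386536 of hg19 on the minus strand.

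Among the 9 helicases, nucleases and remodellers, 4 were called higher with siRNA 1 than with siRNA 2 and 1 lower. Of all genes, 13.9% were called higher and 11.5% lower. PARP1, which senses breaks and stalled forks and marks them with poly(ADP-ribose), had the largest difference of the 41 genes, at 0.56 with siRNA 1 and -1.39 with siRNA 2. PARP1 had -0.06 and 0.01 in A498 cells, 0.09 and 0.06 in 786-O, and -0.16 and -0.11 in HCT116 with the miRNAs, and it lay below siRNA 1 and above siRNA 2 on all 6. The difference was 1.95 (95% interval 1.70 to 2.21, adjusted p = 0.00116, with the siRNA arrays assumed to vary like the miR-139 arrays). A second probe on the same RefSeq transcript was at 0.45 and -1.32, whereas another, dim probe designed on ENST00000366790 was at -0.01 and 0.05. The brightest PARP1 probe lies at chr1:226589945-226590004 of hg19 on the minus strand and the second at chr1:226549161-226549220.

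EXO1, the nuclease that resects broken ends and works in mismatch repair, was at 0.89 with siRNA 1 and -0.71 with siRNA 2. EXO1 had 0.07 and -0.11 in A498, -0.09 for both strands in 786-O, and 0.12 and -0.01 in HCT116. BLM, the helicase that dissolves joined recombination intermediates, was at 0.71 and -0.50 with the siRNAs, and at -0.06 and -0.18, 0.06 and -0.01, and -0.09 and -0.12 on the miRNA arrays in the same order. For both genes the siRNA arrays lay on either side of all 6 miRNA arrays. The differences were 1.60 for EXO1 (SE 0.10, adjusted p = 0.00151) and 1.21 for BLM (SE 0.12, adjusted p = 0.00319) in the same contrast.

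RBBP8, also called CtIP, which starts the resection of ends, was at 0.67 and -0.10 with the siRNAs. RBBP8 had 0.09 and -0.07 in A498 cells, -0.11 and -0.01 in 786-O, and -0.27 and 0.08 in HCT116, and its difference was 0.78 (adjusted p = 0.00954). WRN, the Werner syndrome helicase, had the only called difference in the other direction, with -0.25 for siRNA 1 and 0.11 for siRNA 2 (difference -0.36, adjusted p = 0.0445). That call was lost without any 1 of the 4 miR-139 arrays (adjusted p between 0.0520 and 0.0685), with no background correction, an offset of 10 and another variance prior (adjusted p between 0.0581 and 0.0776), with the cell line as a fixed term (adjusted p = 0.0519) and with median centring (difference -0.22, adjusted p = 0.585). MRE11A and NBN, subunits of the MRN complex that binds broken ends, were at 0.22 and 0.19 and at -0.14 and -0.35, and neither passed a test. MRE11A passed the first test after median centring (mean 0.51, adjusted p = 0.0406), and with the cell line as a random block both did (adjusted p = 0.0163 and 0.0195).

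SMARCAL1, which reverses and restarts stalled forks, was called lower in the mean of both siRNAs, at -0.69 with siRNA 1 and -0.42 with siRNA 2. SMARCAL1 had -0.16 and -0.06 in A498 cells, -0.09 and -0.12 in 786-O, and 0.13 and -0.21 in HCT116 with the miRNAs, all above both siRNA arrays. The mean was -0.55 ± 0.20 (SD, n = 2; limma SE 0.08, adjusted p = 0.0285). Subtracting the mean of the miRNA groups gave -0.48 and median centring -0.18, and each ended the call (adjusted p = 0.0728 and 0.237). ZRANB3, the other fork remodeller, was at 0.01 and -0.05. The SMARCAL1 probe lies at chr2:217347660-217347719 of hg19 on the plus strand.

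Many genes of replication and fork repair are transcribed as cells approach S phase, through E2F factors at their promoters. The promoters of the 41 genes were read for the words bound by E2F, TTTGGCGC, TTTCCCGC, TTTCGCGC and TTTGCCGC, and for CCAAT, the word of NF-Y, on both strands. RefSeq promoters of GRCh38.p14, from 250 bases before to 50 bases after the start, were matched for 36 of the 41 genes. The promoters of the 3 genes with the largest differences, PARP1, EXO1 and FANCD2, and of FANCL, which was low with both siRNAs, are given 5′ to 3′ in the direction of transcription, with E2F and CCAAT words in capitals.

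PARP1: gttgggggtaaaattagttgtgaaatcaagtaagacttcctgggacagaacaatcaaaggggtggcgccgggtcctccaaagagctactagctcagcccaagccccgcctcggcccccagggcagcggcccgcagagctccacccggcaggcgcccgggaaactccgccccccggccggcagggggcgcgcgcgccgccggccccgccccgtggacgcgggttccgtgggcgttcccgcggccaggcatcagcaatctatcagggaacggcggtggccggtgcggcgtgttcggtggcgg

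EXO1: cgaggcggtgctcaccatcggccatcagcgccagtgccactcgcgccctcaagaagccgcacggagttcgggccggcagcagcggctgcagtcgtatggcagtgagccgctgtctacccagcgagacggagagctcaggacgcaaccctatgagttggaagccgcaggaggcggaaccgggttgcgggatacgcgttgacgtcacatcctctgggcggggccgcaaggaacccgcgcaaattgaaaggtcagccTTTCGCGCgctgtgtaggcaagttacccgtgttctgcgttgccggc

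FANCD2: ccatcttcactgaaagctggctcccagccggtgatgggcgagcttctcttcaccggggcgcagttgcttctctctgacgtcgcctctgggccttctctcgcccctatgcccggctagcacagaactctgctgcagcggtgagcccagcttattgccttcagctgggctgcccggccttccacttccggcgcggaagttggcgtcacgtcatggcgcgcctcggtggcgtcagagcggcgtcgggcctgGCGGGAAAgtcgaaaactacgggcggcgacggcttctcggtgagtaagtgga

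FANCL: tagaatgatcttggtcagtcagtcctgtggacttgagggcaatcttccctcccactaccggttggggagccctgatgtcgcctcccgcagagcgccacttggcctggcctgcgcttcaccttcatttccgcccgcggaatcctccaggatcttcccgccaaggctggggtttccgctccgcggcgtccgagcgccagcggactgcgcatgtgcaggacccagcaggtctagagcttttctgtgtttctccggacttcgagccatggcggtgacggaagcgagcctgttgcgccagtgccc

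The PARP1 window lies at chr1:226408044-226408343 on the minus strand, the EXO1 window at chr1:241847954-241848253 on the plus strand, the FANCD2 window at chr3:10026187-10026486 on the plus strand and the FANCL window at chr2:58241276-58241575 on the minus strand. The EXO1 and FANCD2 windows each hold 1 E2F word at the start, and the PARP1 and FANCL windows hold neither word. An E2F word was found in 7 of the 36 promoters (19.4%), those of CLSPN, TOPBP1, XRCC2, FANCA, FANCC, FANCD2 and EXO1, and in 3.33% of all 27305 promoters. All 7 were called higher with siRNA 1, with differences from 0.64 to 1.60, and 14 of the other 29 were called too. Among all tested genes with a promoter, 30.7% of 593 with the word and 17.5% of 11134 without it were called higher. CCAAT was found in 17 of the 36 (47.2%) and in 35.7% of all promoters, and 7 of these 17 genes (41.2%) and 14 of the other 19 (73.7%) were called higher with siRNA 1. Among all tested genes the shares were 21.1% with CCAAT and 16.5% without it. A word in a promoter is a description and does not show binding.

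The partners of these genes were described from lists drawn up by function, also with earlier results of these data known. Unless said otherwise, counts of calls are for siRNA 1 minus siRNA 2, with the spread of the miR-139 arrays. They are to be read against the 13.9% of all genes called higher and 11.5% called lower. Of 17 checkpoint partners, 11 were called higher and 3 lower. PKMYT1, the membrane-bound relative of WEE1, was at 1.19 and -0.93, CDC25A, the phosphatase that opposes WEE1, at 1.57 and -0.09, and the histone H2AFX at 0.45 and -1.16. Of 20 recombination and resolution partners, 9 were called higher and 1 lower. The helicase RECQL4 was at 1.49 and -0.86 and the polymerase POLQ at 0.55 and -0.52.

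Of 10 Fanconi partners tested, 4 were called higher and 1 lower. The ubiquitin-conjugating enzyme UBE2T was at 0.45 and -0.82, the deubiquitinase USP1 at 0.41 and -0.38 and the nuclease FAN1 at 0.46 and -0.09. In end joining, the other route of break repair, 1 of 6 was called higher and 1 lower. DCLRE1C was at 0.75 and 0.10, XRCC6 at -0.75 and -0.34, and XRCC4 at 0.13 and -0.14. Of 14 p53 targets, 2 were called, both higher, a share close to that of all genes. TNFRSF10B was at 1.10 and -0.05, DDB2 at -0.13 and -0.98 and MDM2 at -0.29 and 0.30. In the mean of both siRNAs, 3 of the 14 were called, 2 higher and 1 lower, against 3.56% and 3.85% of all genes. FAS was at 0.66 and 0.51, GADD45A at 0.77 and 0.63 and BBC3 at -0.60 and -0.79.

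Genes of replication and mitosis differed between the siRNAs in the same direction as the checkpoint and fork repair genes. Of 14 replication genes, 13 were called, all higher with siRNA 1, and their medians were 0.48 with siRNA 1 and -0.72 with siRNA 2. The origin factors CDC45, GINS2 and CDT1 were at 0.75 and -1.63, at 1.21 and -1.07, and at 1.35 and -0.56. Of 11 mitosis genes, 9 were called, all higher, with medians of 0.23 and -0.74. MKI67 was at 0.22 and -1.14, TOP2A at 0.48 and -0.82 and CDK1 at 0.23 and -0.97. All 14 replication genes and all 11 mitosis genes were below 0 with siRNA 2, as were 33 of the 41 checkpoint and fork repair genes. Of all 21979 genes measured on that array, 10641 were below 0. The part of the share of cycling cells in these differences was not tested.

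**Figure D4:**
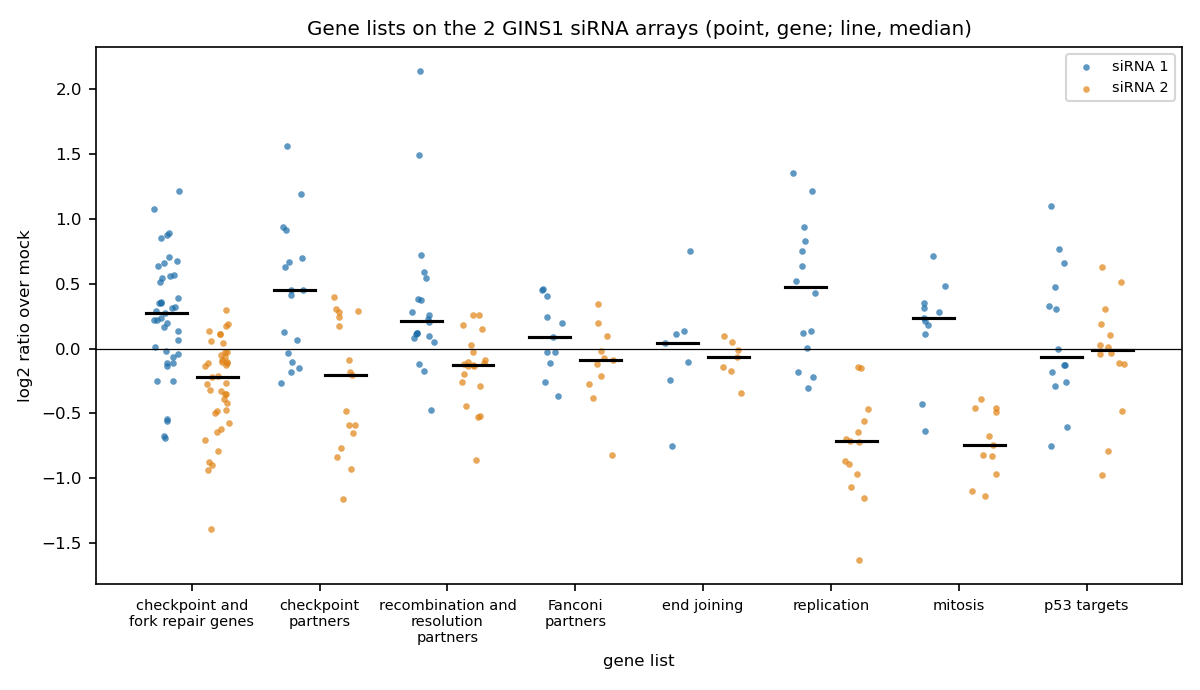
Log2 ratio over mock (y axis) of each gene (points) in the checkpoint and fork repair set and 7 partner lists (x axis) with siRNA 1 (blue) and siRNA 2 (orange), 1 array each, with black lines at the medians. The replication list has medians of 0.48 and -0.72 and the mitosis list of 0.23 and -0.74, while the p53 targets lie at -0.06 and -0.01.

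On the miRNA arrays the 41 genes stayed closer to the mock level, apart from miR-490-5p in HCT116. No gene reached the size rule on a miR-139 array, where all genes were at or below -0.5 in 0.531% and at or above 0.5 in 0.163% for miR-139-5p in A498, in 1.56% and 0.625% for miR-139-3p in A498, in 0.0823% and 0.175% for miR-139-5p in 786-O, and in 0.128% and 0.0972% for miR-139-3p in 786-O. With miR-490-5p, 5 genes were at or below -0.5 and 0 at or above 0.5, where 5.54% of all genes were below and 3.89% above. They were FANCD2 at -0.74, FANCE at -0.73, FANCL at -0.66, FANCG at -0.59 and WRN at -0.52. Thus 4 of the 9 Fanconi anaemia genes were low on this array, with no replicate and no test. With miR-490-3p, 1 gene was at or below -0.5 and 0 at or above 0.5, where 3.77% of all genes were below and 3.97% above.

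The mock channels also gave the starting level of each gene in the 4 lines, compared on the same probe only. Of the 36 genes well above background on all 8 arrays, 16 were highest in 786-O (23.6% of all such genes) and 21 were lowest in A498 (29.1% of all such genes), with lines ordered by their means even where these lay close. FANCE, a core complex subunit, spanned the widest range, with mean mock levels on the log2 scale of 9.81 in MDA-MB-231, 9.74 in HCT116, 8.79 in 786-O and 8.11 in A498. The 2 arrays of a line differed by 0.05, 0.03, 0.11 and 0.14 in the same order, and both MDA-MB-231 arrays lay above both HCT116 arrays. RAD54L had the next widest range, from 7.11 in A498 through 8.07 in MDA-MB-231 and 8.20 in HCT116 to 8.63 in 786-O. PARP1 was highest in HCT116 at 9.75, followed by MDA-MB-231 at 8.96, 786-O at 8.87 and A498 at 8.43. BRCA1 was lowest in MDA-MB-231 at 7.19 and highest in 786-O at 8.33.

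**Figure D5:**
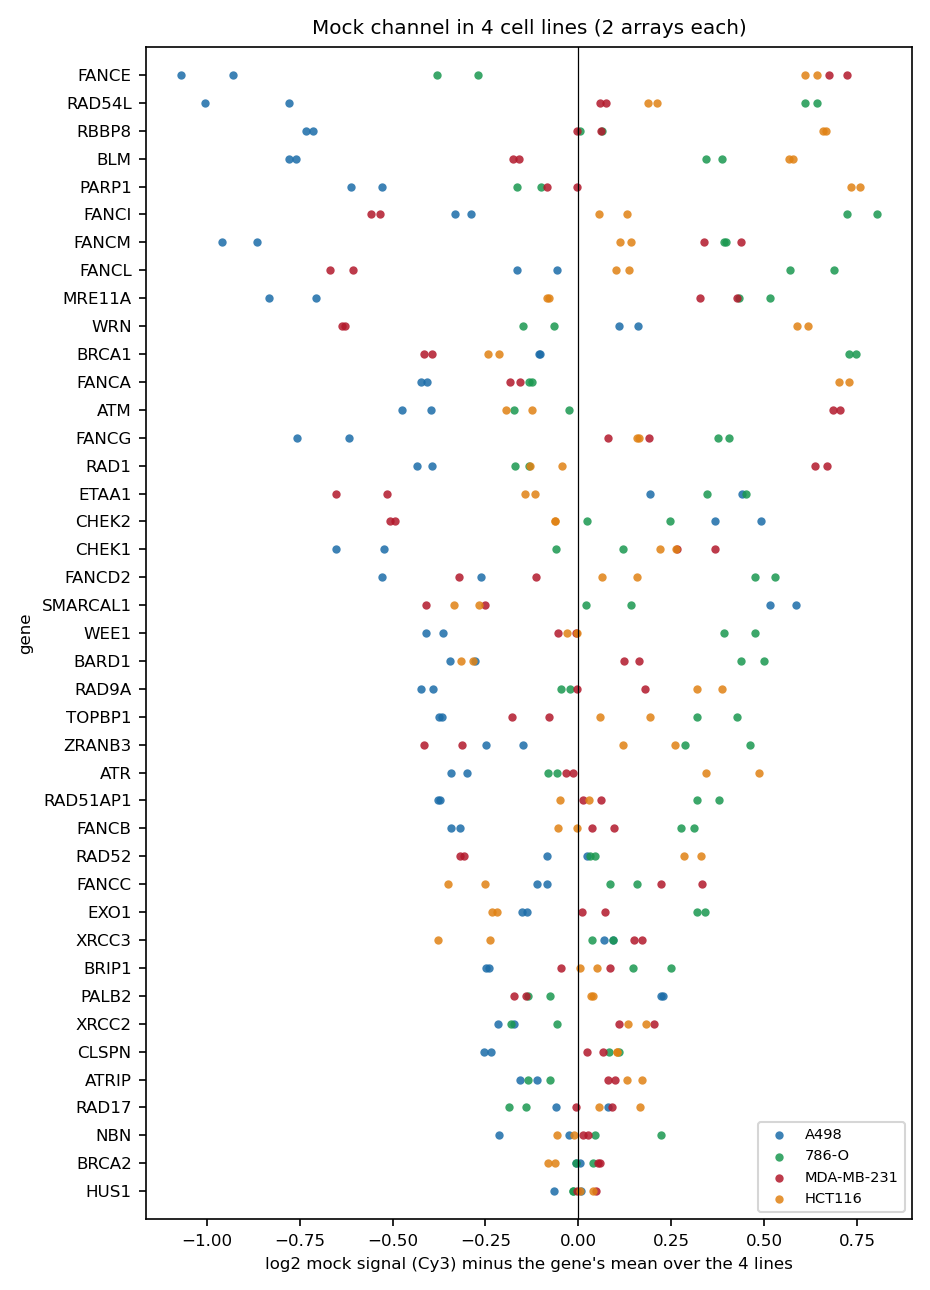
Log2 mock signal in the green channel minus the mean of the gene over the 4 lines (x axis) for each of the 41 genes (y axis, ordered by range), with 2 arrays for each cell line (points, coloured by line). Paired points of a line lie close together compared with the ranges at the top, such as 1.70 for FANCE and 1.52 for RAD54L, and HUS1 at the bottom spans 0.05.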

How the data were processed

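Arrays with 2 dyes of 8 transfections were analysed. Per the file headers, the authors scanned them with Agilent Feature Extraction, and the deposited intensity columns hold spot means and local background medians of both dyes, as linear values. The deposited log10 ratio of Cy5 over Cy3 carries the scanner software's own background and dye corrections and was used as an alternative, converted to log2. The deposited series table held exactly these values and was not used further. Fold changes of the authors were not used.

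Each array was background-corrected by normexp with an offset of 50 and normalized by loess (limma 3.58.1, R 4.3.3), with control spots given no weight and outlier spots left out, and spots of a probe were averaged. Probes were tested where both si-GINS1 arrays had a signal well above background in 1 or both channels. The first test fitted 5 groups (3 residual degrees of freedom) and the second 6 coefficients (2 residual degrees of freedom), by lmFit and eBayes, at an adjusted p of 0.05. An offset of 10, median centring, no background correction, no filter, the mean of all probes, subtraction of the mean of the miRNA groups, other variance priors, a random block and arrays left out were tried. The brightest RefSeq probe and the cell line as a fixed term in the second test were alternatives chosen after seeing the data. The red channels of the si-GINS1 arrays were compared, and the mock channels too, after quantile normalization.

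All 8 arrays shared 1 slide, and their number limits the precision. Named were all 41 genes, with values on all arrays for GINS1, BRCA1 and the 10 largest means and differences, and 3 genes with the largest differences from each of 7 partner lists. A gene that this rule names is not reported here. The members and lists were chosen with earlier results of these data known. Symbols of partners were updated through the RefSeq gene table, and promoters came from RefSeq (GRCh38.p14).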

Additional observations from a re-analysis of the deposited data

How the results depend on the processing

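Members called in the mean of both siRNAs numbered 3. They numbered 11 with the cell line as a random block (consensus correlation -0.67, 10517 of 27798 probes called) and 1 after subtraction of the mean of the miRNA groups (665 of 27798 probes). They numbered 0 with the scanner log ratio (75 of all probes called, 4 members at an unadjusted p under 0.05) and with only the si-GINS1 arrays (0 of all probes, 3 members at an unadjusted p under 0.05). With 1 array left out the number ran from 0, without any one miR-139 array, to 30, without the siRNA 2 array, and was 19 without the siRNA 1 array. A lone array was assumed to vary like the other groups. The other alternatives gave 3 or 4.

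Members called between the siRNAs numbered 23, and 0 with the scanner log ratio, with 25 at an unadjusted p under 0.05 and 0 of all probes called. The number was 16 with median centring and 22 to 26 in the rest, and 22 with any one miR-139 array left out. The shares of all probes called under these alternatives are not given here. The cause of the losses was not tested.

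The median with siRNA 1, 0.27, was 0.37 with the scanner log ratio and 0.63 with median centring. The median with siRNA 2, -0.22, was -0.39 and -0.11 under these, -0.38 with an offset of 10 and -0.38 with no background correction. The median difference, 0.51, was 0.83, 0.65, 0.66 and 0.62 under the same 4 settings and 0.40 with the mean of all probes. Relative to all genes, the median difference under median centring was 0.55. For the dim probes of CLSPN, BRCA2 and FANCB the size depended on the setting. Their differences of 0.71, 0.51 and 0.35 reached 2.82, 1.53 and 0.97. Genes past the size rule with siRNA 2, 9, numbered 17 with the scanner log ratio and 14 with an offset of 10 and with no background correction. The share of all genes past the rule was not computed under these settings.

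The mean of both siRNAs changed sign and was called in 14 cases, each with 1 siRNA array left out. Without the siRNA 1 array and without the siRNA 2 array, the values were -0.62 and 0.87 for FANCD2, -0.35 and 0.36 for FANCE, -0.58 and 0.64 for FANCG, -0.50 and 0.71 for BLM, -0.71 and 0.89 for EXO1, -0.39 and 0.32 for CLSPN, -0.88 and 0.56 for BRCA1, -0.27 and 0.24 for BRCA2, -0.47 and 0.27 for BARD1, -0.48 and 0.36 for RAD51AP1, -0.90 and 0.52 for RAD54L, -0.32 and 0.32 for FANCC, -0.93 and 0.39 for FANCI and -1.39 and 0.56 for PARP1. The 5 genes FANCD2, FANCE, FANCG, BLM and EXO1 reversed without siRNA 1 and the other 9 without siRNA 2. The XRCC3 difference turned from -0.06 to 0.56 with the mean of all probes and to 1.18 with its RefSeq probe. Over the 41 genes and all alternatives, the difference kept its direction and its side of the threshold in 487 comparisons, lost its call in 45 (23 of them with the scanner log ratio), gained one in 13, reversed in 2 and moved in 27. The cell line as a random block could not be estimated in the second test. No paired analysis was possible because the replicates are cell lines in the miR-139 groups and siRNAs in si-GINS1.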
